A study of Mus musculus with 6 samples.

Results

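The genes described here are 10 keratins of mouse mammary epithelium, of 47643 genes counted: Krt7, Krt8, Krt18 and Krt19, which mark luminal cells, Krt5, Krt14, Krt15 and Krt17, which mark basal cells, and Krt6a and Krt10. They were chosen by name as a list of luminal and basal keratins, and the Ensembl identifiers of the count tables were mapped to symbols of the GRCm38 annotation. The other 44 keratin genes of the annotation that the tables hold are given beside them.

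Keratins are the intermediate filament proteins of epithelial cells, and each filament is built from type I keratins (here Krt10, Krt14, Krt15, Krt17, Krt18 and Krt19) paired with type II keratins (here Krt5, Krt6a, Krt7 and Krt8). In the mammary gland, the luminal cells that line the ducts typically hold the pair Krt8 and Krt18 with Krt7 and Krt19, whereas the basal myoepithelial cells around them hold the pair Krt5 and Krt14. Krt6a is an inducible keratin of stressed or proliferating epithelium, and Krt10 is a keratin of the upper, differentiating layers of the epidermis.

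Epithelial cells (CD45-EPCAM+, and by the study's methods also CD31- and PDGFRα-) were sorted from 6 mammary tumors of female FVB/N MMTV-PyMT mice, whose mouse mammary tumor virus promoter drives the polyoma middle T antigen in mammary epithelium. All mice had received B20-4.1.1, an antibody that neutralizes VEGF-A, at 5 mg/kg, 2 times per week for 6 weeks from 7 weeks of age, so no untreated tumor is in the data analysed here. The study sorted treated tumors into a less hypoxic (LH) and a more hypoxic (HH) class, but the labels do not give the class of each tumor, and the tumors, numbered 1 to 6, are therefore described as 1 group with no comparison between classes. Each library was read near the 3′ end of transcripts, and levels are given as CPM, the count of a gene scaled to a library total of 1000000 counts on genes.

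Totals on genes lay between 2509482 (tumor 2) and 5893246 (tumor 1), at which 3 counts correspond to 0.509 to 1.2 CPM. Tumor 1 gave the library least like the rest: its median correlation with them over genes was 0.788, where the other 5 reached 0.905 to 0.939. Epcam, the gene of the sorting marker, lay between 611 and 972 CPM. The library of tumor 3 held more RNA of other cells, with a summed level of 778 CPM for 4 erythroid genes (5.08 to 63.3 CPM in the other tumors) and 215 CPM for 7 immune genes (15.3 to 48.5 CPM elsewhere). Nothing in the labels says that the tumors came from separate animals beyond their different mouse identifiers. In sorted bulk samples such as these, fewer cells of a type and less RNA per cell cannot be told apart.

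Luminal keratins made up most of the keratin RNA in every tumor, and Krt18 led them. Krt18 (ENSMUSG00000023043; GRCm38 chr15:102028180-102032027, plus strand), the type I partner of Krt8, was at 1148, 1126, 925, 835, 926 and 1203 CPM in tumors 1 to 6. It was the highest keratin in each of the 6 tumors, and its range did not overlap that of any other member. Krt8 (ENSMUSG00000049382; chr15:101996698-102004482, minus strand), the type II partner, lay next to Krt18, 23.7 kb away, and was at 617, 326, 218, 235, 256 and 296 CPM. Tumor 1 stood above the other 5 tumors, which lay close together.

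The ratio of Krt18 to Krt8 was 1.86 in tumor 1 and between 3.45 and 4.24 in the other tumors, with a median of 3.58. With levels divided by exon length (TPM, scaled likewise), Krt18 was still above Krt8 in 6 of 6 tumors, by 2.54 to 5.78 times. Filaments hold the types in pairs, but in RNA the type I keratins exceeded the type II keratins in every tumor. Over all keratin genes, the ratio of type II to type I was 0.510, 0.332, 0.297, 0.429, 0.337 and 0.295 in tumors 1 to 6 by CPM, and 0.162 to 0.313 by TPM.

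Krt19 (ENSMUSG00000020911; chr11:100140810-100148665, minus strand), a type I keratin of simple epithelia, was at 319, 238, 279, 164, 272 and 302 CPM. Krt7 (ENSMUSG00000023039; chr15:101411043-101430313, plus strand), a type II keratin of ductal epithelium, was at 258, 158, 158, 197, 321 and 192 CPM. Krt19 was lowest in tumor 4, and Krt7 was highest in tumor 5 and lowest in tumors 2 and 3. Krt8 and Krt19 could not be ordered, since each was the higher in 3 of 6 tumors. Krt19 was above Krt7 in 4 of 6 tumors by CPM and in 6 of 6 by TPM, which divides by 1855 bases for Krt19 and 7049 for Krt7.

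**Figure D1:**
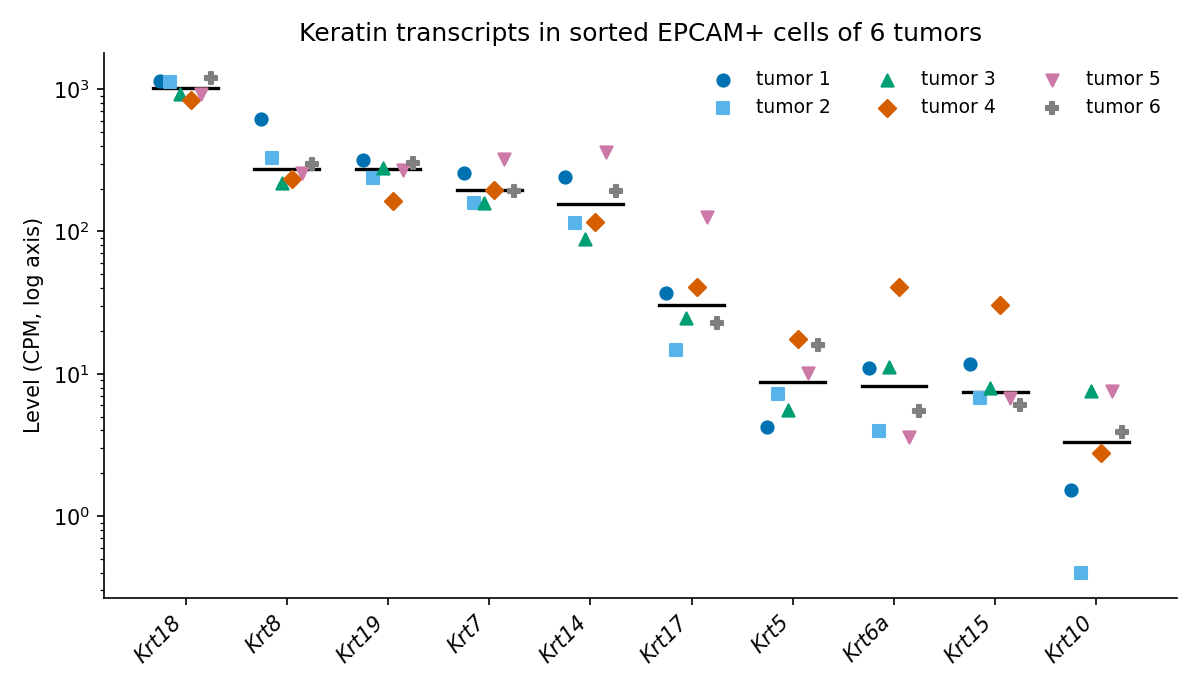
Level of the 10 keratins in each of the 6 tumors, in CPM on a log axis. Each point is 1 tumor and the black line is the median. Krt18 lay above all other members in every tumor, Krt14 was at a level like those of Krt7 and Krt19, and Krt5, Krt6a, Krt15 and Krt10 were far lower.

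Among the basal keratins, Krt14 stood alone at the level of the luminal keratins. Krt14 (ENSMUSG00000045545; chr11:100203162-100207548, minus strand), the type I keratin of basal cells, was at 241, 116, 88.8, 117, 359 and 193 CPM. Tumors 5 and 1 were highest and tumor 3 was lowest, a range in which Krt14 and Krt7 could not be ordered (Krt7 was higher in 4 of 6 tumors by CPM and in 0 of 6 by TPM). Krt5 (ENSMUSG00000061527; chr15:101707070-101712898, minus strand), its type II partner in basal cells, was at 4.24, 7.17, 5.58, 17.4, 10.2 and 15.8 CPM, from 18 to 82 counts. Krt14 thus exceeded Krt5 in all 6 tumors, by 56.8, 16.1, 15.9, 6.73, 35.3 and 12.2 times, and by 8.41 to 71 times in TPM.

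Krt17 (ENSMUSG00000035557; chr11:100256217-100261029, minus strand), a type I keratin of basal and stress-responsive epithelium, was at 36.7, 14.7, 24.5, 40.8, 127 and 22.8 CPM. It was second among the basal keratins in every tumor, below Krt14 and above Krt5 by both CPM and TPM. Tumor 5 lay far above the other 5. Krt15 (ENSMUSG00000054146; chr11:100131758-100135928, minus strand), a type I keratin of basal cells and of the hair follicle bulge, was at 11.7, 6.77, 8.0, 30.4, 6.79 and 6.05 CPM, with tumor 4 above all others.

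Krt6a (ENSMUSG00000058354; chr15:101689910-101694307, minus strand) was at 11, 3.98, 11.2, 40.6, 3.59 and 5.47 CPM. Again tumor 4 was highest, on 191 counts against 10 to 65 in the other tumors. Krt5 and Krt6a could not be ordered, nor could Krt6a and Krt15. Krt10 (ENSMUSG00000019761; chr11:99385254-99389364, minus strand) was the lowest member by median, at 1.53, 0.398, 7.52, 2.77, 7.59 and 3.90 CPM, and in tumor 2 it rested on 1 count (95% exact binomial interval 0.0101 to 2.22 CPM).

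Together, the 4 luminal keratins reached 1432 to 2343 CPM with a median of 1811 (mean 1828 ± 320.5, SD, n = 6), a coefficient of variation of 17.5%. Krt18 made up 49.0 to 60.9% of this sum. The 4 basal keratins reached 127 to 503 CPM with a median of 222 (252 ± 137, SD, n = 6), a coefficient of variation of 54.5% and a 3.97-fold span. Krt14 gave 57.0 to 82.1% of the basal sum and Krt5 1.44 to 8.46%, so the basal sum was largely a sum of type I keratins.

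The luminal-to-basal ratio was 7.98, 12.8, 12.5, 6.95, 3.53 and 8.39 in tumors 1 to 6 (8.68 ± 3.51, SD, n = 6). Luminal keratin RNA exceeded basal keratin RNA in every tumor. Tumor 5 had the lowest ratio with a luminal sum of 1775 CPM, near the median, and the highest basal sum. Tumor 4 had the lowest luminal sum. By TPM the ratio spanned 3.28 to 13.4 with a median of 8.27, against 8.18 by CPM. Without Krt14, a choice made after seeing the values, the median ratio was 43.0 and the range 12.3 to 64.4.

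**Figure D2:**
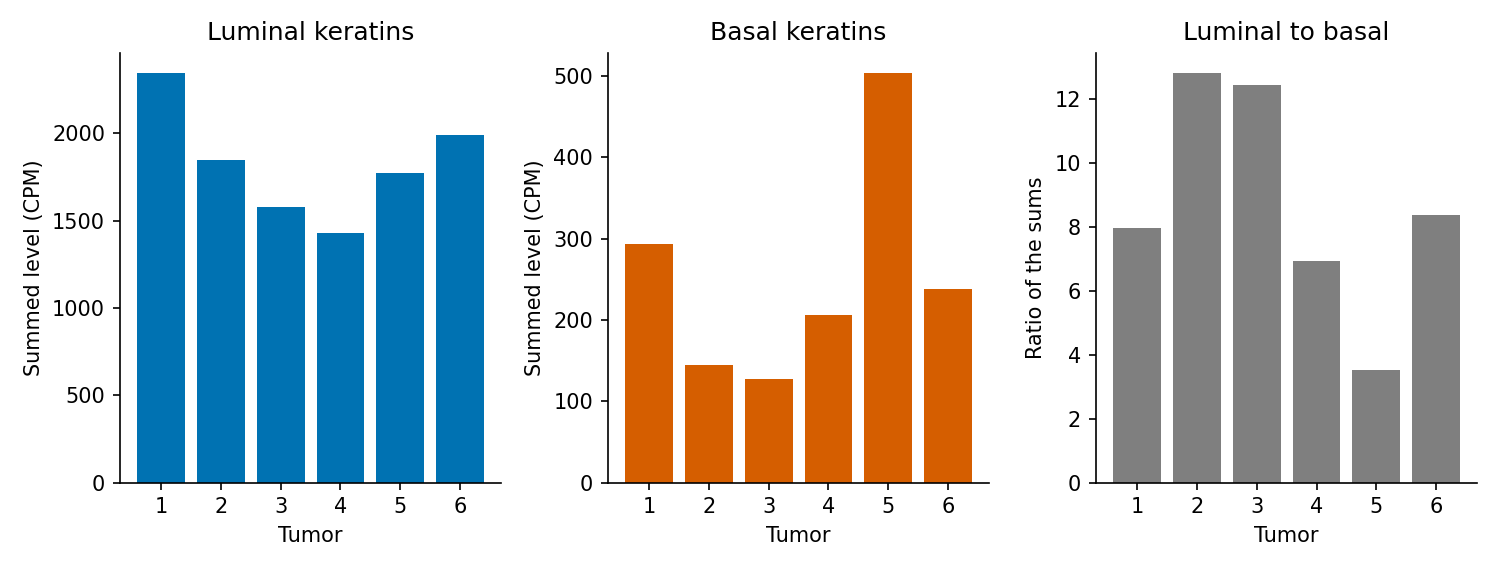
Summed level of the 4 luminal keratins, summed level of the 4 basal keratins (both in CPM) and their ratio, 1 bar per tumor, with all axes from 0. The luminal sums lay between 1432 and 2343 CPM, while the basal sum reached 503 CPM in tumor 5, where the ratio was lowest at 3.53.

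The basal keratins were present with at most 8 counts per tumor of each of Acta2, Actg2, Tagln, Cnn1 and Myh11, contractile genes of myoepithelial cells. Acta2, the smooth muscle actin that defines these cells, had 0 to 5 counts per tumor, Actg2 had 1 count in all 6 together, and Cnn1 and Myh11 had at most 2 each. Of the 9 myoepithelial genes of the list, 6 exceeded 3 counts in a tumor, and their summed level was 60.6 to 93.1 CPM, carried by Mylk (27.1 to 65.7 CPM) and Lmod1 (9.16 to 54.5 CPM), which other cells also express. Trp63, the p63 transcription factor of basal epithelium, was at 3.39, 5.98, 10.4, 16.0, 4.59 and 4.88 CPM. It was highest in tumor 4, as Krt15 was, and not in tumor 5, the tumor with the highest Krt14, by CPM, TPM and both other scalings. The 12 luminal genes summed to 4062 to 5047 CPM, most of it Cdh1, an adherens junction gene, Gata3, a luminal transcription factor gene (802 to 1329.5 CPM), and Epcam, which the sort selected for. Members of this list were low too: Foxa1, a factor of hormone-sensing luminal cells, was at 0.638 to 6.30 CPM, the estrogen receptor gene Esr1 at 3.19 to 10.7 CPM, and the progesterone receptor gene Pgr at 3.19 to 23.5 CPM. Basal mammary cells carry less EPCAM on their surface than luminal cells, and the part of the EPCAM sort in these levels was not tested.

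**Figure D3:**
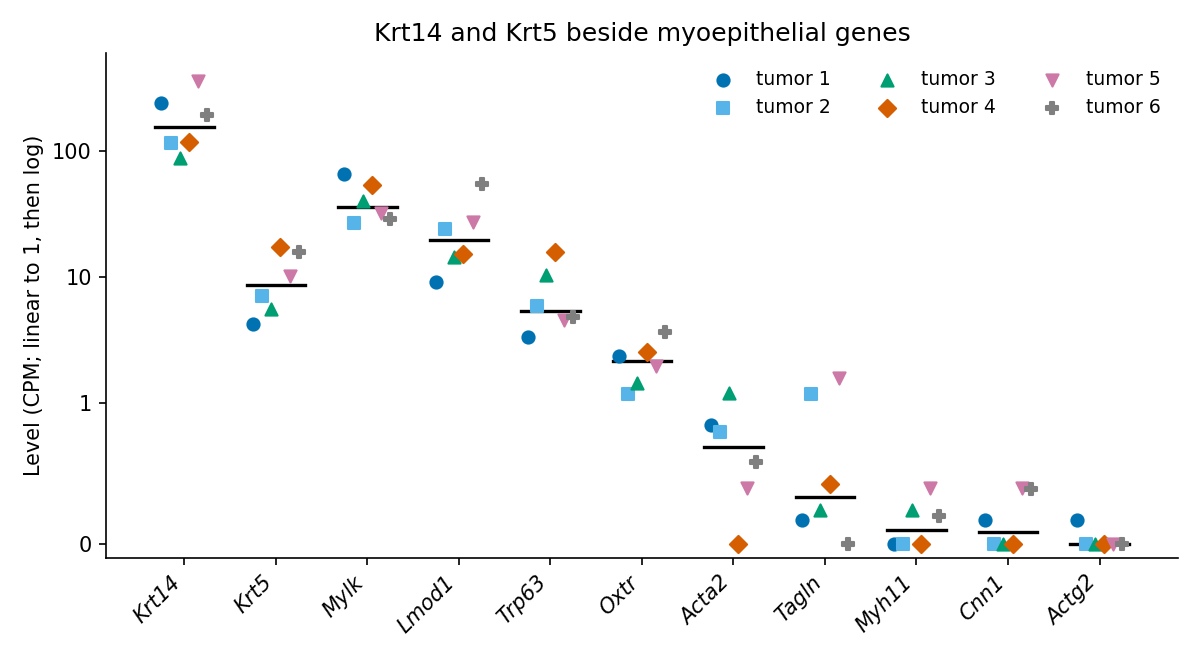
Level of Krt14, Krt5 and the 9 myoepithelial genes in each tumor, in CPM on an axis that is linear up to 1 CPM and logarithmic above. Krt14 lay between 88.8 and 359 CPM, whereas Acta2, Actg2, Tagln, Cnn1 and Myh11 lay near 0 in all 6 tumors.

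By CPM, the keratins peaked in different tumors. Tumor 5 had the highest level of 4 of the 10 members (Krt7, Krt14, Krt17 and Krt10), where 16.2% of all expressed genes (those averaging 10 CPM or more) were highest in that tumor. Krt10 averaged 3.95 CPM and is the only member outside the expressed genes. Tumor 4 had the highest level of 3 (Krt5, Krt15 and Krt6a; 11.1% of the expressed genes), and tumor 1 that of 2 (Krt8 and Krt19; 38.2% of the expressed genes). Krt18 was highest in tumor 6. By other scales, 4 of the 10 changed tumor: Krt5 was highest in tumor 6 under TMM, where it had 17.4 against 17.1 CPM in tumor 4, Krt19 in tumor 6 under TMM and size factors, and by TPM Krt18 in tumor 2 and Krt10 in tumor 3. The intervals of Krt5 in tumors 4 and 6 overlapped (95% exact binomial, 13.9 to 21.7 and 12.6 to 19.7 CPM).

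In 4 of the 10 members, a single tumor was set apart by Dixon's criterion, which compares the gap between an extreme value and its neighbor with the whole range (95% critical value for 6 values). These were Krt8 in tumor 1 (gap 0.729), Krt17 in tumor 5 (0.768), Krt15 in tumor 4 (0.768) and Krt6a in tumor 4 (0.796). The same criterion picked out 18.1% of all expressed genes. Krt10, with a mean under 10 CPM, is not among those genes, and the 4 belong to the other 9 members. The 4 members were the same under every scaling tried, but on a log2 scale none of the 10 passed (14.7% of the expressed genes did).

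The spread beyond counting noise, as the biological coefficient of variation estimated by edgeR over 12088 genes, was lower for the luminal members than for the other 6. Krt18 (0.289), Krt19 (0.306), Krt7 (0.319) and Krt8 (0.377) lay at percentiles 15.4 to 59.9 of all genes. Krt14 (0.445), Krt5 (0.497), Krt15 (0.532), Krt17 (0.577), Krt10 (0.641) and Krt6a (0.691) lay at percentiles 78.7 to 97.6. The median was 0.471 over the members and 0.354 over all genes. Relative to the trend at their level, Krt6a and Krt17 were the most dispersed members, at 1.68 and 1.66 times the trend. Without tumor 4 the value of Krt6a was 0.990, without tumor 5 that of Krt17 was 0.981, and without tumor 4 that of Krt15 went from 1.27 to 0.793, level with Krt19 (0.788) and below Krt18 (0.815), Krt7 (0.918) and Krt8 (1.03). The higher dispersion of Krt15 and Krt6a thus rested on tumor 4 and that of Krt17 on tumor 5. Krt14 also depended on single tumors: its value of 1.25 was 1.06 without tumor 5, where Krt8 was at 1.04, and 1.62 without tumor 1.

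**Figure D4:**
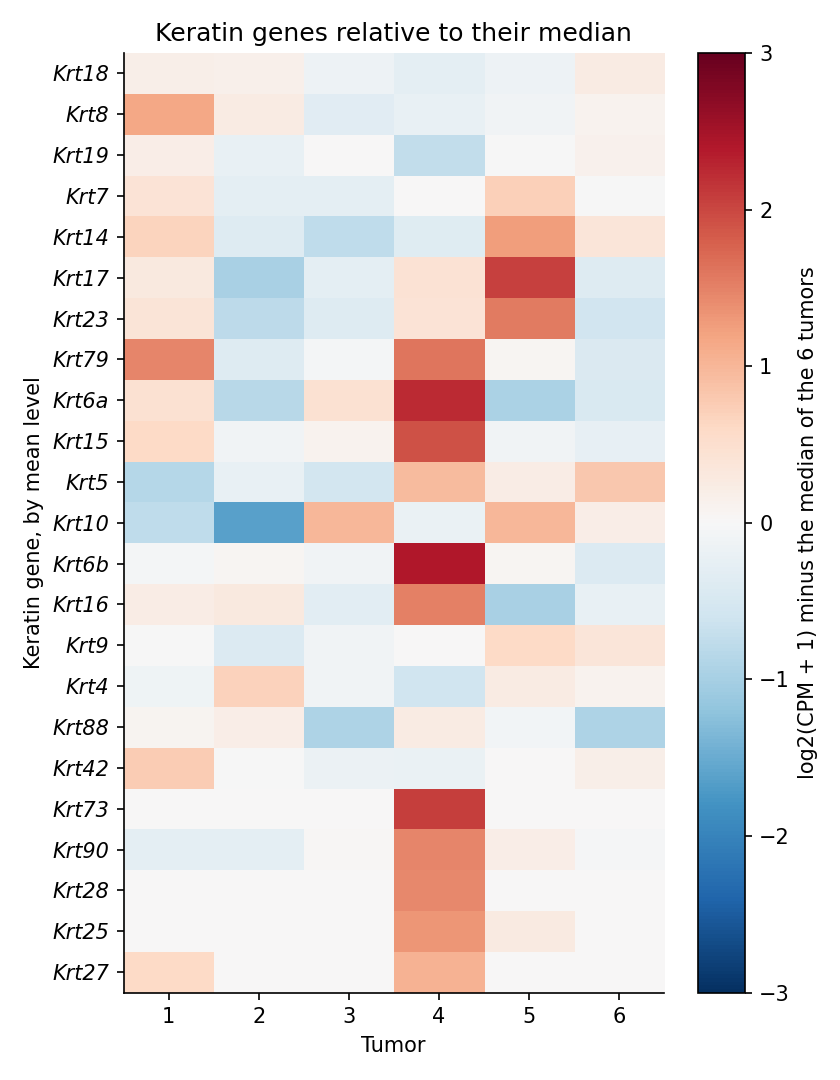
Level of the 23 keratin genes that exceeded 3 counts in at least 1 tumor, as log2(CPM + 1) minus the median of the 6 tumors (red above, blue below, limits at 3). Tumor 4 was the highest in 12 of the 23 (11 under TMM), among them Krt6a, Krt6b, Krt15 and Krt16, and tumor 5 in 6, among them Krt7, Krt14 and Krt17. Of all genes that pass the same filter, 12.3% were highest in tumor 4, and several of the keratins passed it only through tumor 4.

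Several low keratins outside the list, named here after their values were seen, were also highest in tumor 4. Krt6b, a close paralog of Krt6a, reached 10.2 CPM in tumor 4, against 0.586 to 1.2 CPM elsewhere. Krt16, the type I keratin usually induced with Krt6a, was at 6.81 CPM there and 0.399 to 2.39 CPM elsewhere. Krt73, Krt28, Krt25 and Krt27, keratins of the inner root sheath of the hair follicle, had 15, 8, 7 and 5 counts in tumor 4 and at most 3 in any other tumor. By CPM, tumor 4 held the highest level of 12 of the 23 keratins that exceeded 3 counts anywhere (11 under TMM), against 12.3% of the 15663 genes that pass the same filter. Several of these keratins passed the filter only through tumor 4, so the count describes them and supports no more. The rest of the low keratins were divided. Of the other inner root sheath keratins, Krt71 and Krt26 had 3 counts each in tumor 4 and 0 in every other tumor. Krt72 and the pseudogene Krt74, of the same kind, had 0 in all 6 tumors. Krt90 had 11 counts there and at most 2 elsewhere, and the hair keratin Krt32 had 1 there and 0 elsewhere. Krt10 was at 2.77 CPM in tumor 4, below tumors 3, 5 and 6. The epidermal keratins Krt1 and Krt2 had 2 and 0 counts there, against at most 1 and 0 elsewhere. The hair keratins Krt33a, Krt34, Krt36, Krt39, Krt40, Krt81, Krt82, Krt83, Krt84 and Krt86 had 0 in tumor 4. Krt31, Krt33b and Krt35, also hair keratins, had 0 in tumor 4 and 1 count in tumors 6, 2 and 2.

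The suprabasal skin genes were divided. Krtdap had 16 counts in tumor 4, Flg 13, and Ivl and Dsg1a 4 each, where the other 5 tumors had at most 2 of any of these. Lor, a gene of the cornified envelope, was instead highest in tumor 1, with 6 counts against 1 in tumor 4. Sbsn, the most abundant of the list, was at 7.44 CPM in tumor 4, below tumors 1, 2 and 6 (11.7, 12.0 and 8.79 CPM). Over the whole list, 6 of 9 suprabasal skin genes exceeded 3 counts in a tumor, Krt2 and Dsc1 were at 0 in all 6, and the summed level was 16.0 CPM there, against 5.59 to 13.2 CPM elsewhere. Of the genes that anchor keratin filaments at junctions, Dsg3, the desmosomal cadherin of basal epidermis, had 13 counts (2.77 CPM) in tumor 4. It was at most 0.998 CPM elsewhere. Col17a1 and Dst were also highest in tumor 4, and the rest of that list were not. Among the rest, Dsc3 had 1 count there, and Pkp1 (10.4 CPM in tumor 4) and Evpl (14.5 CPM) were highest in tumor 1. The part of skin cells in the higher Krt15 and Krt6a of tumor 4 was not tested.

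Of the other 44 keratin genes, 19 had no count, 31 never exceeded 3 counts in a tumor, and 2 reached a mean of 10 CPM. Krt23, a type I keratin, was at 37.2, 15.9, 21.3, 37.7, 84.7 and 18.5 CPM, highest in tumor 5 as Krt14 and Krt17 were. Krt79, a type II keratin of the upper hair follicle, was at 24.1, 5.98, 7.76, 26.6, 8.39 and 5.66 CPM, high in tumors 1 and 4. The 10 members held 94.6 to 98.7% of all keratin counts.

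Among the 36 pairs of the 9 members that averaged 10 CPM or more, 3 reached a Pearson's r of at least 0.8 over the 6 tumors, on log2(TMM-scaled CPM + 1). This share was near the 7.5% of all pairs of expressed genes that reached it, so the number of such pairs is what expressed genes at large gave in these libraries. The 3 are described without a p, since they were picked by their values: Krt7 with Krt14 (0.958), Krt15 with Krt6a (0.936) and Krt7 with Krt17 (0.854). With the luminal keratins Krt8, Krt18 and Krt19, Krt7 had r of 0.328, 0.0273 and 0.256, and the difference between these values was not tested. Krt7 with Krt14 stayed between 0.920 and 0.979 when each tumor was left out. Krt15 with Krt6a fell to 0.709 without tumor 4, and Krt7 with Krt17 to 0.631 without tumor 5. Krt19 with Krt15, also picked by its value, had r of -0.803, the only pair of the 36 below -0.8. The share of all pairs of expressed genes below -0.8 was not computed. Tumor 4 had both the lowest Krt19 (164 CPM) and the highest Krt15 (30.4 CPM), and r without tumor 4 is not given for this pair. Among the other tumors, tumor 1 had both the highest Krt19 (319 CPM) and the highest Krt15 (11.7 CPM), against the sign of that r. Krt7 and Krt14 lie on chromosomes 15 and 11, as do Krt6a and Krt15.

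**Figure D5:**
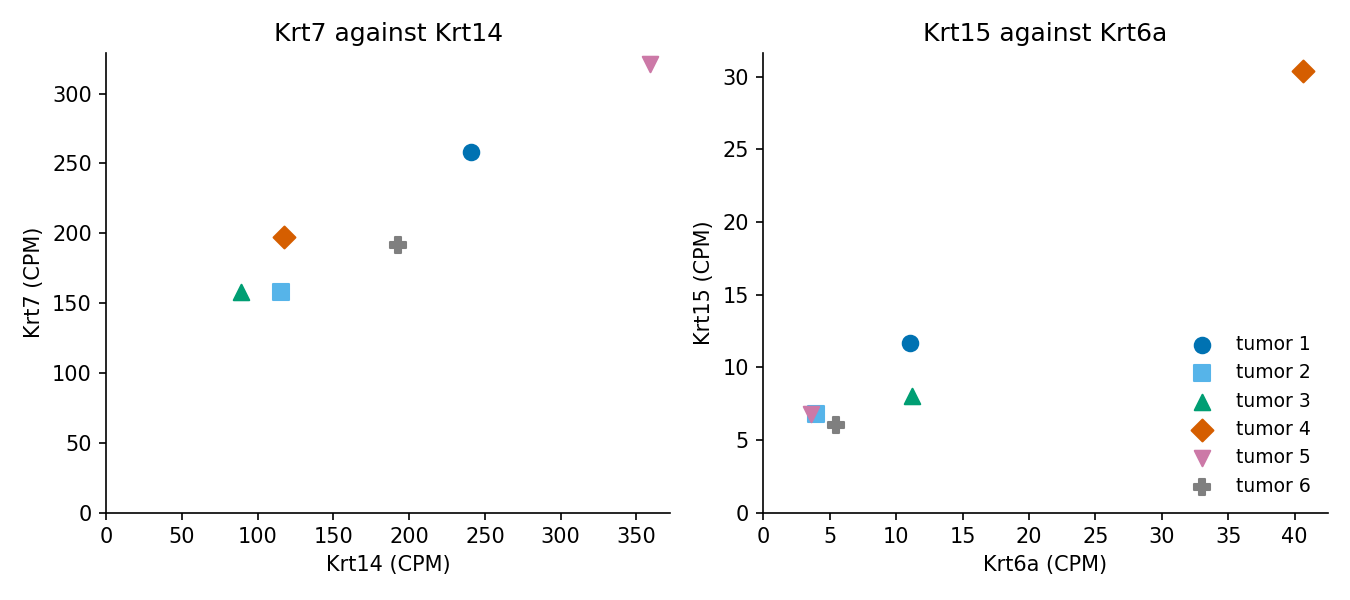
Krt7 against Krt14 and Krt15 against Krt6a, in CPM, 1 point per tumor, marked by color and shape. Krt7 and Krt14 had r = 0.958 on the log2 scale, and r of Krt15 with Krt6a was 0.936 with tumor 4 and 0.709 without it.

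A set of 10 relations was tested with exact permutation over the 720 orders of the tumors, two-sided, for which the smallest possible p is 0.00139. None passed after Benjamini-Hochberg adjustment over the 10, and 0 had an unadjusted p under 0.05. The pair Krt8 and Krt18 had r = 0.647 (exact permutation p = 0.161, adjusted 0.685) and rho = 0.714 (exact p = 0.136), and r was 0.951 without tumors 1 and 3, those farthest from the median of Krt8. The basal pair Krt5 and Krt14 had r = 0.10 (exact permutation p = 0.826, adjusted 0.865) and rho = 0.0286, and its sign turned without tumor 3 or tumor 6. Krt14 with Krt17 had r = 0.713 (exact permutation p = 0.0931, adjusted 0.685), which was 0.245 without tumors 3 and 5 and 0.308 without tumor 5 alone.

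The luminal and basal sums were not detectably related, with r = 0.354 (exact permutation p = 0.501, adjusted 0.804) and rho = 0.429. That r was 0.0894 without tumor 3 and 0.660 without tumor 5. The basal sum with the 3-gene hypoxia score of the study (mean TPM of Vegfa, Slc2a1 and Car9, each a gene induced by low oxygen) had r = 0.619 (exact permutation p = 0.206, adjusted 0.685) and rho = 0.371, and r was 0.234 without tumors 3 and 5 and 0.139 without tumor 5 alone. The luminal sum with that score had r = -0.507 (exact permutation p = 0.319, adjusted 0.799) and rho = -0.600, and r was -0.332 without tumor 4. The remaining 4 relations (Krt7 with Krt19, Krt14 with Krt15, and each sum with its own list) had r between -0.288 and 0.340. The value for the basal sum with the myoepithelial list, 0.340, was 0.684 without tumor 1 and 0.167 without tumor 5, and it was 0.652 with a pseudocount of 0.1 and 0.137 with one of 5. With 6 tumors, only strong relations could pass.

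The 5 genes that are no keratin and lay closest to the basal sum were Dyrk3 (r = 0.992), Anxa5 (0.989), Kpnb1 (0.983), Lamb1 (0.979) and Endod1 (0.976). Lamb1, a laminin chain of the basement membrane, spanned 37.6 CPM (tumor 3) to 127 CPM (tumor 5). Closest to the luminal sum were Haus2 (0.984), Ap2s1 (0.980), March2 (0.980), Pdzd11 (0.968) and Rpap3 (0.967). An r of at least 0.8 was reached by 2.28% of expressed genes with the basal sum and by 3.17% with the luminal sum, and by 0 of 9 luminal and 0 of 2 myoepithelial genes tested with either.

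The mouse identifiers in the labels carry a prefix, QAF for tumors 1, 4, 5 and 6 and QSD for tumors 2 and 3, whose meaning is not given. For 2 of the 10 members the prefixes did not overlap, both among the 9 that averaged 10 CPM or more. Of all expressed genes, 14.0% were so. Krt7 was at 158 CPM in both QSD tumors and 192 to 321 CPM in the QAF tumors. Krt14 was at 88.8 and 116 CPM in the QSD tumors and 117 to 359 CPM in the QAF tumors, a narrow gap. Under TMM the prefixes overlapped for Krt14, with 120 CPM in tumor 2 against 115 CPM in tumor 4. The number under TMM was again 2, with Krt17 in place of Krt14 (15.3 and 23.1 CPM against 25.1 to 124 CPM). The luminal-to-basal ratio, whose basal sum is mostly Krt14, was 12.5 and 12.8 in the QSD tumors and 3.53 to 8.39 in the QAF tumors. Without Krt14 the prefixes overlapped in this ratio, at 41.5 and 64.4 in the QSD tumors and 12.3 to 44.6 in the QAF tumors. With 15 possible arrangements, an exact two-sided permutation test can go no lower than p = 0.0667, and a value within each prefix was not computed, since the prefixes hold 4 and 2 tumors.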

How the data were processed

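The authors deposited raw counts per gene for each library. Libraries were prepared with a 3′ kit (QuantSeq FWD) with molecular identifiers of 6 bases, and per the submitters' processing notes and the study's methods reads were trimmed with bbduk, aligned to GRCm38/mm10 with STAR 2.5 and counted with HTSeq. The annotation release, the strand setting and whether reads were collapsed by identifier are not given in the sources used here, so intervals cover counting error only, and Krt10 could share reads with the antisense gene Gm11940 (60 counts in all tumors). Lines that name no gene (16.1 to 41.4% of reads) were left out.

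Of 47643 identifiers, 47224 matched GENCODE M21. All genes entered the total for CPM, and union exon lengths were used for TPM. Since reads came from near the 3′ end, counts need not scale with exon length, and TPM served only as a second scale. TMM factors (0.911 to 1.06), size factors (0.545 to 1.42) and dispersions came from edgeR 4.0.16 and DESeq2 1.42.0 in R 4.3.3 on 12088 genes, after a test on simulated data. The members and gene lists were chosen with earlier results of these data known. The genes named are the members, other keratins averaging 10 CPM or more, the genes of the lists and the 5 nearest genes to each sum. Krt6b, Krt16, Krt73, Krt28, Krt25, Krt27, Krt71, Krt26, Krt72, Krt74, Krt90 and the hair keratins were named after their values were seen. Endothelial genes summed to at most 3.88 CPM, fibroblast genes to 14.6 to 21.1 CPM and adipocyte genes to at most 2.18 CPM. In Krt7, 3.59% of the 50-base windows of the last 300 bases also occur in another annotated gene, and in the other members, Krt6a beside its paralog Krt6b included, none do. Alternatives were other scalings, pseudocounts, filters and keratin sets, and each tumor left out in turn. The spread between tumors is the only replication.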

Additional observations from a re-analysis of the deposited data

Results flagged for a closer look

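Of 40 measures of the 6 tumors compared with Dixon's criterion, 10 had 1 tumor set apart. The same criterion set a tumor apart in 18.1% of the genes averaging 10 CPM or more in these libraries, against the 1 in 20 groups of its nominal rate, and several measures share genes. For the members, Krt8 was high in tumor 1 (gap 0.729), Krt17 in tumor 5 (0.768), and Krt15 (0.768) and Krt6a (0.796) in tumor 4. Among the derived values, the ratio of Krt18 to Krt8 was low in tumor 1 (gap 0.669), where Krt8 was high, and the share of Krt15 in the basal sum was high in tumor 4 (0.630), at 14.8%. The summed keratin-anchoring genes were high in tumor 1 (0.670), where Pkp3 was at 491 CPM against 186 to 285 CPM elsewhere.

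In tumor 3, the immune genes (gap 0.833), the erythroid genes (0.925) and the adipocyte genes (0.708) were high, the last at no more than 2.18 CPM. The part of these cells in the keratin values of tumor 3, which had the lowest Krt8 and Krt14, was not tested.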

How the results depend on the processing

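The median luminal sum was 2267 CPM when the 10 most abundant genes of each library were left out of the total, against 1811 CPM. The median basal sum rose likewise, to 279 from 222 CPM, since a smaller total raises the level of every gene kept. The median ratio of type II to type I keratins was 0.181 by TPM, against 0.335 by CPM. TPM divides by exon length, which was 7049 bases for the type II keratin Krt7 and 1437 to 2418 bases for the other members. Without Krt14, chosen after seeing the data, the median luminal-to-basal ratio was 43.0, by construction, since Krt14 is most of the basal sum. On the log2 scale 0 members had a tumor set apart, against 4, and with each tumor left out there were 2 (without tumor 4) to 4. With each tumor left out, r ranged from -0.228 (without tumor 3) to 0.394 for Krt5 with Krt14, from -0.535 to 0.0675 (without tumor 4) for Krt14 with Krt15, and from -0.457 to 0.297 (without tumor 3) for the luminal sum with the luminal list, which was also positive without tumor 1. Other scalings moved r of the luminal sum with the luminal list from -0.0793 to -0.357 (CPM) and -0.420 (without the 10 most abundant genes), of Krt5 with Krt14 from 0.10 to 0.0342 (CPM), and of Krt7 with Krt19 from 0.256 to 0.149 (without the 10 most abundant genes), which was also 0.149 without tumor 1. The members that did not overlap between the prefixes numbered 2 to 4, with 4 without tumor 3. Under TMM they numbered 2 as well, but with Krt17 in place of Krt14. Tumor 4 held the highest level of 11 of the 23 keratins under TMM and of 12 under size factors, and several of the 23 passed the count filter only through tumor 4. Beyond what the scales and sums fix by arithmetic, the causes were not tested. With each tumor left out, the median luminal-to-basal ratio stayed between 7.98 and 8.39. The median basal sum then lay between 206 and 238 CPM and the median luminal sum between 1775 and 1848 CPM. No paired analysis was possible because the labels give only 1 group. Depth limits Krt10, Krt6a, Krt5 and Krt15, which rest on 1 to 191 counts per tumor.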

Other observations

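Keratin filaments are anchored at desmosomes and hemidesmosomes, and the genes of these junctions were for the most part expressed in all 6 tumors. Of 15 such genes 14 were matched, and 13 exceeded 3 counts in a tumor, with a summed level of 856 to 1173 CPM. Pkp3, a desmosomal plaque gene, led with 186 to 491 CPM. Dsp, the plakin that ties keratins to desmosomes, was at 74.7 to 179 CPM, Jup at 42.6 to 159 CPM, Dsg2, the desmoglein of simple epithelia, at 95.6 to 157 CPM, and the hemidesmosomal genes Plec and Dst at 79.3 to 116 CPM and 76.9 to 119 CPM. Col17a1, the hemidesmosomal collagen of basal cells, had at most 5 counts per tumor and Dsc3 at most 1. Of these genes, 10 averaged at least 10 CPM, and none of the 10 reached r = 0.8 with either keratin sum, with Dsp the highest with the basal sum at 0.775 and Dst the lowest at -0.724.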
